A study of Mus musculus with 6 samples.

Results

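Receptors for bone morphogenetic proteins (BMPs), activins and TGF-beta were described in sensory neurons sorted from embryonic mouse dorsal root ganglia. The members were 10 genes chosen by name, Bmpr1a, Bmpr1b, Bmpr2, Acvr1, Acvr1b, Acvr2a, Acvr2b, Tgfbr1, Tgfbr2 and Tgfbr3, out of 41388 genes listed in each library. The rule of that choice uses no measured value, but it was made with earlier results of these data known. All 10 were found by symbol. The 6 RNA-seq libraries comprised 3 from female and 3 from male C57BL/6 embryos at 18.5 days post coitum, named here by sex and by the letter A, B or C. Cells were isolated by fluorescence-activated sorting of EGFP from ganglia of the lower thoracic to upper sacral spine. The genotype of every group paired RetFloxedEGFP, in which EGFP is turned on at the Ret gene by Cre recombinase, with Cre driven from the Nav1.8 gene Scn10a, which is active in pain-sensing neurons. The labels do not say how many copies of the altered Ret allele the embryos carried, and no library from EGFP-negative cells was analysed here. The 3 female libraries and male A were pools of 2 embryos (40 ganglia), male B was a pool of 3 (60 ganglia), and for male C a single embryo gave 20 ganglia. The genotype label of male C is shortened and lacks the Cre allele, which its title does name, and its record belongs to a later set.

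Ligands of the TGF-beta family act through a complex of type II and type I receptor serine/threonine kinases, in which the type II receptor phosphorylates the type I receptor. The type I receptor then phosphorylates Smad1, Smad5 and Smad9 when it is Bmpr1a, Bmpr1b or Acvr1, and Smad2 and Smad3 when it is Acvr1b or Tgfbr1. Bmpr2 binds BMPs, Acvr2a and Acvr2b bind activins and also some BMPs and GDFs, Tgfbr2 binds TGF-beta, and Tgfbr3 (betaglycan) is a co-receptor without kinase activity. In developing sensory neurons these receptors are best known for BMP and activin signals received from the tissues that the axons reach.

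The DNA before the annotated transcription start is shown for 3 members on which the results that follow turn. Tgfbr1 and Tgfbr2, the kinases of the TGF-beta receptor complex, differed widely in level, and the ratio of Acvr1b to Tgfbr1, both activators of Smad2 and Smad3, varied widely between libraries. Each line gives the 250 bases before the RefSeq start closest to the deposited 5′ end of the gene, on build GRCm38.p6, 5′ to 3′ on the strand of the gene, and capitals mark GGGCGG on either strand (CCGCCC when read on the strand shown). The Tgfbr1 window is chr4:47352972-47353221 on the plus strand, that of Acvr1b is chr15:101173822-101174071 on the plus strand, and that of Tgfbr2 is chr9:116175364-116175613 on the minus strand.
Tgfbr1: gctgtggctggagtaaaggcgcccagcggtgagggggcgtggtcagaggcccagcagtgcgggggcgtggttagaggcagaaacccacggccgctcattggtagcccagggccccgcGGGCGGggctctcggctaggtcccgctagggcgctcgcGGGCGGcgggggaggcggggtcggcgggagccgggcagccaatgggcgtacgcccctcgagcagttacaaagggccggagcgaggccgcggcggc
Acvr1b: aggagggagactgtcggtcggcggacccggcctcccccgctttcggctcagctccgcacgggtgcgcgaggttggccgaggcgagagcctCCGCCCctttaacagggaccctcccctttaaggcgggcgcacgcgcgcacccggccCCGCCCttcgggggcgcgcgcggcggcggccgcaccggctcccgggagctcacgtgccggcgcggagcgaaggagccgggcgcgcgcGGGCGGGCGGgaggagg
Tgfbr2: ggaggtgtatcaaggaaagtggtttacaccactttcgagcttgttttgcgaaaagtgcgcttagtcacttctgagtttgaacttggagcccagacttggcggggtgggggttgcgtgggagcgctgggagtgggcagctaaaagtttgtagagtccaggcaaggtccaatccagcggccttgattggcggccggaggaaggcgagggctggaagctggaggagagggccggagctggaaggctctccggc
With overlapping matches counted, GGGCGG was found 2 times in the window shown for Tgfbr1 and 4 times before Acvr1b, and it was not found before Tgfbr2. A second RefSeq start of Tgfbr1, not shown, had no match, 3 CpG dinucleotides and 52.8% GC in its window (chr4:47385966-47386215). At least 1 match was present in 32.7% of 32851 RefSeq promoters of the same length. The Tgfbr1 window shown held 29 CpG dinucleotides at 74.8% GC, the Acvr1b window 42 at 78.8% GC and the Tgfbr2 window 12 at 58.4% GC, beside a median of 6 CpG dinucleotides over all these promoters. RefSeq promoter entries were matched for 9 of the 10 genes. Among the genes not shown, GGGCGG was found 6 times before Acvr1, 4 times before Bmpr1a and 3 times before Acvr2b. It was found 2 times before Acvr2a, 1 time before Bmpr2 and at no listed start of Bmpr1b. The listed starts of Bmpr1b lie 187161 to 238005 bases inside the deposited gene, so the DNA before its 5′ end was not examined. A match describes these letters only.

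Counted reads per library numbered 15693013 to 24033601, and 19526 to 21755 genes had a read. A count of 0 allows a level of up to 0.125 to 0.191 CPM, depending on the library. The sorted cells carried the labelled neuronal genes: Scn10a averaged 119 ± 18.1 RPKM and Ret 27.8 ± 3.62 RPKM (SD, n = 6), where RPKM is the read count scaled by library size and gene length. The 8 sensory neuron markers summed to between 2885 and 4586 RPKM per library. RNA of other ganglion cells was present as well, with sums of 508 to 634 RPKM for 7 glial markers, 149 to 174 RPKM for 7 fibroblast markers and 15.8 to 19.6 RPKM for 8 endothelial and mural markers. Dcn, at a mean of 133 RPKM, carried most of the fibroblast sum, and the other fibroblast markers averaged 0.0574 to 10.6 RPKM. Rgs5 and Pdgfrb averaged 9.85 and 4.79 RPKM, and the other endothelial and mural markers 0.167 to 1.2 RPKM. No marker of these lists was at 0 in all libraries, although the fibroblast gene Twist1 and the endothelial gene Cldn5 were at 0 in some, and 6 immune markers summed to at most 0.904 RPKM. Erythroid markers summed to 1251 RPKM in male A and to between 41.1 and 226 RPKM in the other libraries. How much of each receptor RNA came from cells other than neurons was not tested, and in such bulk samples fewer cells of a type and less RNA per cell cannot be told apart.

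All 10 receptor genes passed the filter on low counts, and 7 of 10 averaged at least 1 RPKM, a level that 11605 of 41388 listed genes (28%) reached. Bmpr2, Bmpr1a, Acvr2a and Tgfbr1 formed the upper end, between 10.8 and 6.82 RPKM, so that a type II and a type I receptor for BMPs stood highest. Acvr1b, Tgfbr3 and Acvr1 lay between 4.87 and 2.29 RPKM. Acvr2b, Bmpr1b and Tgfbr2 were the lowest, between 0.928 and 0.443 RPKM, although each had at least 20 reads in every library.

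**Figure D1:**
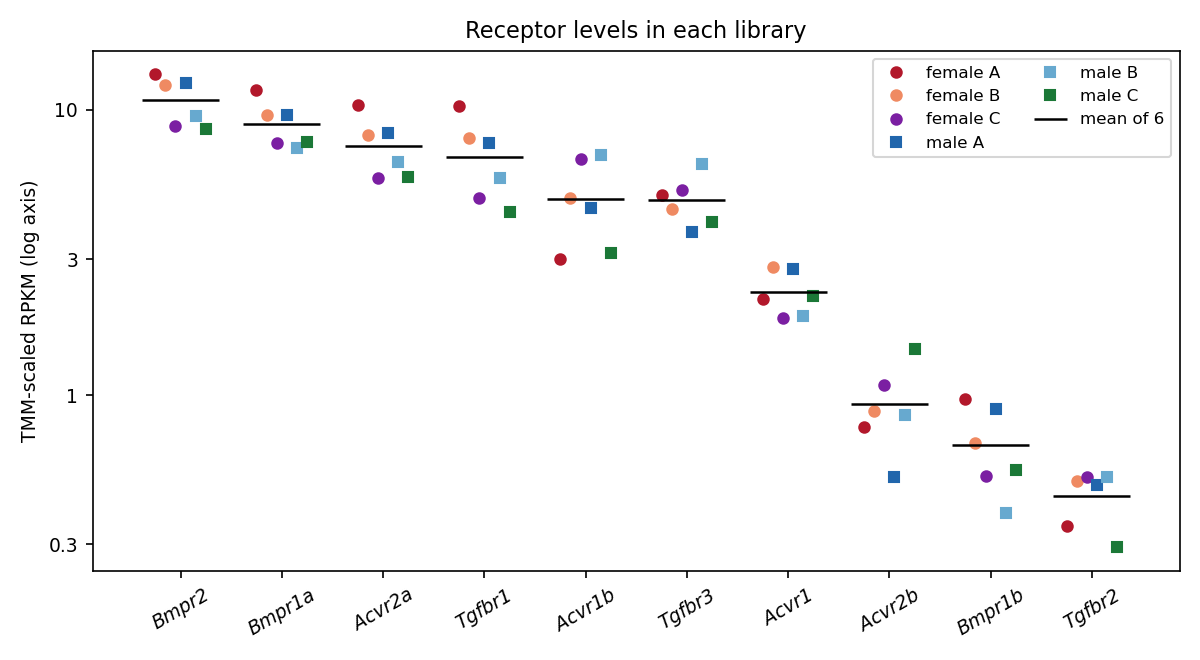
RPKM of the 10 receptor genes (log axis) in each of 3 female (left within a gene) and 3 male libraries, ordered by mean; points are libraries and bars are means over 6 libraries. Means run from 10.8 RPKM for Bmpr2 to 0.443 RPKM for Tgfbr2, and female and male points overlap for every gene.

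Among the type I receptors for BMPs, Bmpr1a (ENSMUSG00000021796, chr14:34410734-34503341, minus strand; build GRCm38.p2 for all gene positions) had 11.7, 9.62 and 7.65 RPKM in female A, B and C, against 9.61, 7.35 and 7.72 RPKM in male A, B and C. Its mean was 8.95 ± 1.69 RPKM (SD, n = 6) on 734 to 1505 reads. Female A was the highest, and the values of both sexes overlapped. Of its exons, 4.57% overlap Gm17110 on the other strand, so reads of the pair cannot be told apart if strand was not used in counting.

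Bmpr1b (ENSMUSG00000052430, chr3:141837136-142169425, minus strand), the closest relative of Bmpr1a, was far lower, with 0.973, 0.681 and 0.521 RPKM in female A, B and C, against 0.893, 0.386 and 0.549 RPKM in male A, B and C. The mean was 0.667 ± 0.227 RPKM (SD, n = 6) on 49 to 117 reads. Bmpr1a exceeded Bmpr1b in all 6 libraries, by a ratio of 14.1 ± 2.82 (SD; range 10.8 to 19).

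Acvr1 (ENSMUSG00000026836, chr2:58388644-58567157, minus strand), also called ALK2, had 2.17, 2.82 and 1.86 RPKM in female A, B and C, against 2.76, 1.9 and 2.23 RPKM in male A, B and C. At 2.29 ± 0.414 RPKM (SD, n = 6), its highest library was 1.51 times its lowest, the narrowest range of the 10 genes.

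Of the type I receptors that activate Smad2 and Smad3, Tgfbr1 (ENSMUSG00000007613, chr4:47353222-47414931, plus strand) had 10.3, 7.96 and 4.89 RPKM in female A, B and C, against 7.65, 5.76 and 4.39 RPKM in male A, B and C. It averaged 6.82 ± 2.22 RPKM (SD, n = 6) on 429 to 1281 reads. Female A stood highest, and male C lowest, 2.34-fold apart.

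Acvr1b (ENSMUSG00000000532, chr15:101174067-101213679, plus strand), the activin type I receptor ALK4, had 3.01, 4.9 and 6.7 RPKM in female A, B and C, against 4.54, 6.94 and 3.16 RPKM in male A, B and C. The mean was 4.87 ± 1.68 RPKM (SD, n = 6). The highest library was male B and the lowest female A, the library in which Tgfbr1 was highest. The ratio of Acvr1b to Tgfbr1 was 0.293, 0.615 and 1.37 in female A, B and C, against 0.593, 1.21 and 0.721 in male A, B and C. It ranged 4.68-fold, so that Acvr1b was the higher of the pair in female C and male B and the lower in the other 4 libraries. After a trend with GC content was removed from each library, the same ratio ranged 3.59-fold. Both genes lay near the median GC content of tested genes, where that trend is small, so its removal could change this range little.

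Summed over genes, the type I receptors for Smad1 and its relatives (Bmpr1a, Bmpr1b and Acvr1) reached 11.9 ± 2.13 RPKM, and those for Smad2 and Smad3 (Acvr1b and Tgfbr1) reached 11.7 ± 2.11 RPKM (SD, n = 6 each). Receptors of the Smad1 class made up 52.8%, 50.5% and 46.4% of the type I sum in female A, B and C, against 52.1%, 43.1% and 58.2% in male A, B and C. Neither class was the larger in all libraries. Male C, the single embryo, gave the largest share for the Smad1 class.

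Among the type II receptors, Bmpr2 (ENSMUSG00000067336, chr1:59763400-59879014, plus strand) had 13.3, 12.2 and 8.76 RPKM in female A, B and C, against 12.4, 9.52 and 8.56 RPKM in male A, B and C. Its mean of 10.8 ± 2.06 RPKM (SD, n = 6) lay at the 71.1st percentile of the 15026 genes tested. Female A, female B and male A were the high libraries, and female C, male B and male C the low ones.

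Acvr2a (ENSMUSG00000052155, chr2:48814109-48903269, plus strand), a type II receptor for activins, was high and low in the same libraries as Bmpr2. It had 10.4, 8.14 and 5.77 RPKM in female A, B and C, against 8.29, 6.54 and 5.82 RPKM in male A, B and C, with a mean of 7.49 ± 1.79 RPKM (SD, n = 6). Part of its exons, 7.84%, overlaps Orc4 on the opposite strand.

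Acvr2b (ENSMUSG00000061393, chr9:119402444-119433501, plus strand), the second activin type II receptor, had 0.774, 0.88 and 1.09 RPKM in female A, B and C, against 0.519, 0.852 and 1.45 RPKM in male A, B and C, on 20 to 45 reads. The ratio of Acvr2a to Acvr2b averaged 9.27 ± 4.65 (SD, n = 6) and ranged from 4.02 in male C to 16 in male A. Acvr2a exceeded Acvr2b in all 6 libraries. The length deposited for Acvr2b is 1753 bases, against 3928 bases of exons annotated in GENCODE M21, so the size of this ratio depends on the annotation.

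Tgfbr2 (ENSMUSG00000032440, chr9:116087698-116175363, minus strand), the type II receptor for TGF-beta, was the lowest member, with 0.348, 0.501 and 0.516 RPKM in female A, B and C, against 0.485, 0.517 and 0.293 RPKM in male A, B and C. Reads numbered 21 to 59 per library. Tgfbr1 exceeded Tgfbr2 by a ratio of 29.5, 15.9 and 9.48 in female A, B and C, against 15.8, 11.1 and 15 in male A, B and C. The mean ratio was 16.1 ± 7.07 (SD, n = 6), and the deposited length of Tgfbr2 is 4785 bases against 8187 bases of annotated exons. Tgfbr2 averaged 0.443 ± 0.0973 RPKM (SD, n = 6), within the spread of the 8 endothelial and mural markers. That spread also held the mean of every other receptor except Bmpr2. Of these markers, Kdr, Tek, Cldn5 and Pecam1 averaged 0.167 to 0.399 RPKM, and Cdh5, Egfl7, Pdgfrb and Rgs5 averaged 0.477 to 9.85 RPKM. The part of such cells in the Tgfbr2 reads was not tested.

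Bmpr2 and Acvr2a together supplied 92.6 ± 2.66% of the type II sum of 19.6 ± 3.58 RPKM (SD, n = 6 each). Their share was between 89.2% and 95.5% in every library. Tgfbr2 and Acvr2b made up the rest.

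The co-receptor Tgfbr3 (ENSMUSG00000029287, chr5:107106570-107289629, minus strand) had 5.01, 4.5 and 5.22 RPKM in female A, B and C, against 3.74, 6.47 and 4.03 RPKM in male A, B and C. The mean was 4.83 ± 0.981 RPKM (SD, n = 6), and the ratio to Tgfbr2 was 11.2 ± 2.71. Male B was the highest library for Tgfbr3 and also for the fibroblast collagen gene Col1a1, which had 8.53, 4.53 and 13.2 RPKM in female A, B and C, against 6.21, 23.4 and 7.48 RPKM in male A, B and C. Col1a2 and Col3a1 were also highest in male B, whereas Dcn, the most abundant fibroblast marker, was lowest there (115 RPKM), and Lum was highest in female A (4.07 RPKM) and Pdgfra in male A (0.48 RPKM). The part of fibroblasts in the Tgfbr3 values was not tested.

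Differences between neighbours in the order of levels were taken within each library on the log2(RPKM + 0.1) scale, which understates differences of low genes. In 5 of the 9 neighbouring pairs, the gene with the higher mean was higher in all 6 libraries. These were Bmpr2 over Bmpr1a (0.26 ± 0.10), Bmpr1a over Acvr2a (0.27 ± 0.11), Acvr2a over Tgfbr1 (0.16 ± 0.14), Tgfbr3 over Acvr1 (1.04 ± 0.49) and Acvr1 over Acvr2b (1.26 ± 0.60; log2 difference, mean ± SD, n = 6). Each reached an exact two-sided sign-flip p of 0.031, the smallest that 6 libraries can give, and an adjusted p of 0.056 over the 9 pairs, so 0 of 9 passed 0.05. On this scale the other 4 pairs did not differ beyond their spread. Tgfbr1 and Acvr1b differed by 0.49 ± 0.79 (adjusted p = 0.2411 by the same exact test), and Acvr1b and Tgfbr3 by -0.04 ± 0.41 (adjusted p = 0.9375 by the same exact test). At the lower end, the difference was 0.42 ± 0.77 between Acvr2b and Bmpr1b and 0.47 ± 0.57 between Bmpr1b and Tgfbr2. Over all 45 pairs of the 10 genes, 39 kept 1 order in all libraries. Without division by length, 7 of the 9 pairs had 1 order in all libraries. Acvr2a and Tgfbr1 then changed places (-0.04), and so did Acvr2b and Bmpr1b (-1.23). Tgfbr1 exceeded Acvr1b (1.06) and Tgfbr3 exceeded Acvr1b (-0.60 for Acvr1b minus Tgfbr3) in all 6 libraries (p = 0.031 for each by the same exact test, unadjusted).

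The receptors varied together in part. Bmpr2, Bmpr1a, Acvr2a, Tgfbr1 and Bmpr1b, 5 of the 10 genes, were each above their own mean in female A, female B and male A and below it in female C, male B and male C. Of the 15026 tested genes, 10.3% had these signs, and the pattern was picked with the values in view. With the GC trend described next removed, 4 of the 10 receptors and 6.55% of tested genes had them. On the log2 CPM scale, Tgfbr1 deviated from its mean by 0.68, 0.29 and -0.43 in female A, B and C, against 0.23, -0.21 and -0.56 in male A, B and C. Acvr1b deviated with the opposite sign in 4 of 6 libraries, by -0.58, 0.09 and 0.50 in female A, B and C, against -0.02, 0.54 and -0.53 in male A, B and C. Both genes were low in male C.

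**Figure D2:**
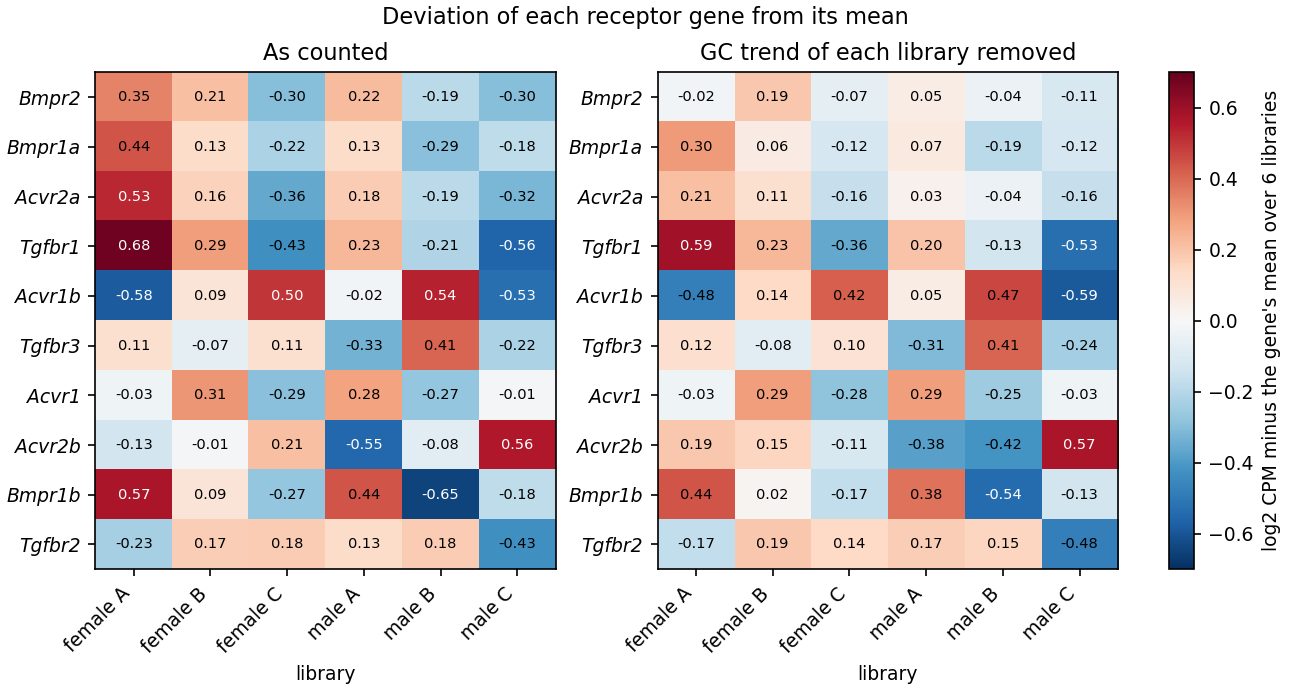
Deviation of log2 CPM from the mean of each receptor gene over 6 libraries (colour, log2 units), with genes as rows and the 3 female libraries left of the 3 male ones, as counted and with the GC trend removed. Tgfbr1 is highest in female A (0.68) and Acvr1b lowest there (-0.58).

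The same libraries differed in how transcript GC content related to counts. Over 14938 genes, the Spearman correlation across genes between GC content and the deviation of a library was -0.62, -0.31 and 0.54 in female A, B and C, against -0.36, 0.48 and 0.18 in male A, B and C. Genes are not independent replicates, and these values describe the libraries. The spread of Bmpr2 and Acvr2a, the receptors whose transcripts were lowest in GC, narrowed most when this trend was removed. With the trend removed, the SD of log2 CPM was 0.11 for Bmpr2 (39.6% GC), against 0.29 as counted, and 0.15 for Acvr2a (41.1% GC), against 0.35 as counted. At 46.4% GC, the SD of Bmpr1a was 0.18, against 0.28 as counted, and that of Bmpr1b 0.37, against 0.46 as counted. Acvr2b, the receptor highest in GC (59.3%), did not narrow, at 0.38 against 0.37 as counted. Tgfbr2 (52.1% GC) and Tgfbr3 (51.0% GC) stayed at 0.27.

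Tgfbr1 (48.0% GC) and Acvr1b (53.5% GC) kept most of their spread. Both lay near the median GC content of tested genes (50.3%), where the trend is small and its removal can narrow little. Their SDs with the trend removed were 0.42 and 0.45, against 0.48 for both as counted. Among the genes tested, these lay at the 85.7th and 88.6th percentiles of SD with the trend removed, where Bmpr2 lay at the 6.51st. They were less extreme by the biological coefficient of variation of the edgeR fit, which estimates variation beyond counting error. On that measure, as counted, Tgfbr1 lay at the 60.6th percentile, Acvr1b at the 70.6th and Bmpr2 at the 29th. The median SD of all tested genes was 0.24 with the trend removed and 0.28 as counted, beside 0.27 and 0.32 for the 10 receptors. As counted, 7 of 10 receptors had an SD above the median of tested genes, and 9 had without male C. With the trend removed the number was also 7, but only Bmpr1b, Acvr1b, Acvr2b and Tgfbr1, 4 of 10, were above it on both scales. Of these, Acvr2b had only 20 to 45 reads per library and Bmpr1b 49 to 117. The part of counting error in their SDs was not tested. Without male C, the SD of Acvr1b as counted was 0.46 and that of Tgfbr1 was 0.44.

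**Figure D3:**
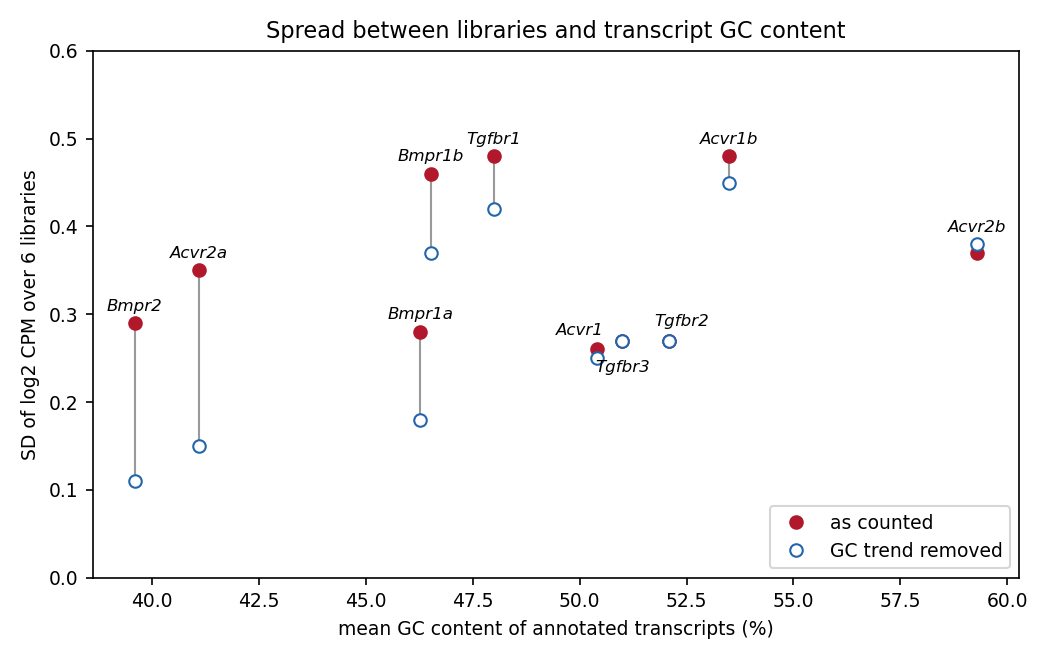
SD of log2 CPM over 6 libraries (vertical axis, from 0) against the mean GC content of annotated transcripts (horizontal axis, percent) for the 10 receptor genes. Filled points are values as counted and open points have the GC trend removed. Bmpr2 (39.6% GC) drops to 0.11 with the trend removed, while Acvr1b (53.5% GC), nearer the median of tested genes (50.3%), is at 0.45.

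Acvr1b had the largest SD of the 10, and the genes closest to it across libraries were Tbx3, Wasf2, Zfand3, Ash2l and Clic4. Their mean absolute distance from Acvr1b on the centred log2 CPM scale was 0.054 to 0.072 over the 6 libraries, where the median over 10339 candidate genes was 0.43. They were picked as the genes closest to Acvr1b, so the gap to the median follows from that choice. Fkbp1a, which encodes FKBP12, a protein that binds type I receptors and holds their kinase inactive, had the same highest and second highest libraries. It had 133, 203 and 300 RPKM in female A, B and C, against 160, 326 and 89.5 RPKM in male A, B and C. Its SD of log2 CPM was 0.67 with the GC trend removed and 0.69 as counted.

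Between females and males, the only groups the labels give, 0 of the 10 receptor genes was called by edgeR's quasi-likelihood test at an adjusted p of 0.05, beside 0.0333% of the 15026 genes tested (0.00666% higher in females and 0.0266% higher in males). None of the 10 had an unadjusted p under 0.05, against 166 of all tested genes, and DESeq2 and limma-voom also called 0 of 10. Tgfbr1 had the largest fold change, at 7.71 ± 2.7 RPKM in females and 5.93 ± 1.64 RPKM in males (SD, n = 3 each). Its log2 fold change, female over male, was 0.39 (SE 0.29, 95% interval -0.26 to 1.05, edgeR adjusted p = 0.9997). Without 1 library in turn it was between 0.12 (without female A) and 0.64 (without female C). For Bmpr2 it was 0.18 (95% interval -0.29 to 0.65), with 11.4 ± 2.35 RPKM in females and 10.1 ± 1.98 RPKM in males (SD, n = 3 each). Bmpr1a and Acvr2a each had 0.25, with intervals of -0.22 to 0.71 for Bmpr1a and -0.30 to 0.79 for Acvr2a.

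The ranges of females and males overlapped for all 10 receptors, and 5.92% of tested genes had ranges that did not overlap. The widest interval was that of Acvr2b, -0.99 to 0.98, on its 20 to 45 reads. With 3 libraries per sex, differences of any size within these intervals remain possible. The intervals are not adjusted for the number of genes tested, so a difference beyond them could also go uncalled. The median log2 fold change of the 10 receptors was 0.13, against 0.00 for all tested genes, and 9 of 10 values were positive, against 49.1% of tested genes. With RLE scaling the values of Acvr1 and Acvr1b turned negative.

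**Figure D4:**
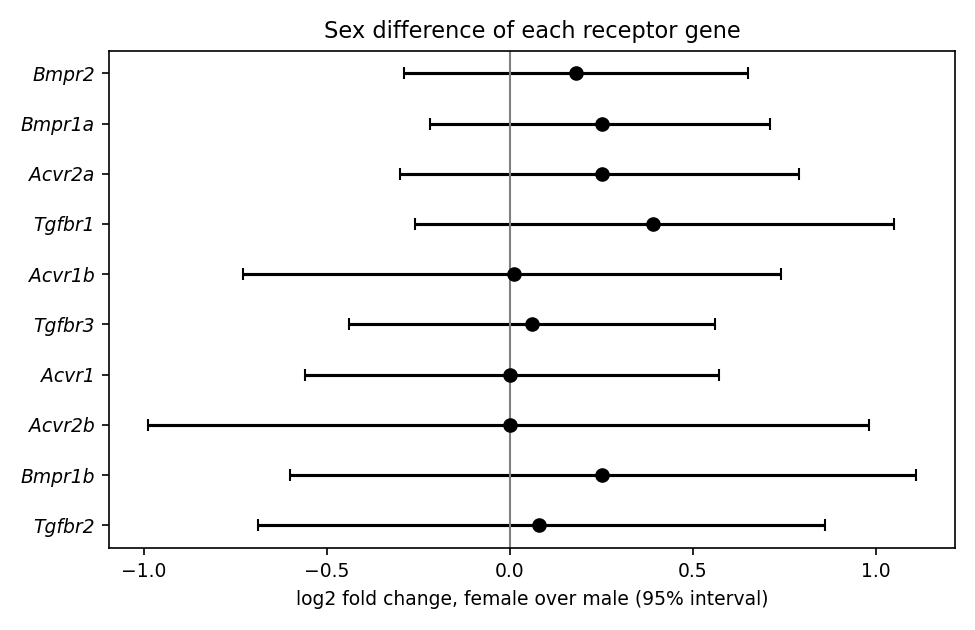
log2 fold change, female over male, of each receptor gene (points) with its 95% interval from edgeR (bars; 3 libraries per sex). Every interval includes 0; the point farthest from 0 is Tgfbr1 at 0.39.

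Beside the 10 receptors, 99 other genes of the pathway were listed, of which 98 matched a symbol, 41 averaged at least 1 RPKM and 59 were tested. None of the 59 was called between females and males by edgeR, and their median log2 fold change was 0.00. The remaining receptors of the family were low: Acvrl1 averaged 0.18 ± 0.161 RPKM, with 0.5 RPKM in male B and at most 0.16 RPKM elsewhere, Amhr2, the receptor for anti-Müllerian hormone, 0.0815 ± 0.0591 RPKM and Acvr1c 0.0342 ± 0.0102 RPKM (SD, n = 6 each). Of 8 co-receptors and decoy receptors, 2 reached 1 RPKM. Rgmb, a BMP co-receptor also called Dragon, averaged 20.5 ± 2.2 RPKM (SD, n = 6), above all 10 receptors. Bambi, a decoy receptor without a kinase, had 0.796, 0.846 and 2.7 RPKM in female A, B and C, against 0.867, 2.96 and 0.955 RPKM in male A, B and C. Its 2 high libraries, female C and male B, were those in which Acvr1b exceeded Tgfbr1.

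Ligand RNA was sparse, with 2 of 21 matched BMP and GDF genes and 3 of 11 activin and TGF-beta genes at 1 RPKM or more. Gdf11 stood out at 26.7 ± 2.47 RPKM and Gdf9 followed at 1.75 ± 0.355 RPKM (SD, n = 6 each). Gdf11 signals through activin type II receptors. Tgfb2 averaged 5.02 ± 1.33 RPKM, Tgfb3 4.12 ± 0.716 RPKM and Inha, the inhibin alpha subunit, 3.55 ± 1 RPKM (SD, n = 6 each). Bmp15 had the smallest p of the BMP and GDF list for sex, with a log2 fold change of -1.35 (SE 0.49) that was not called.

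Extracellular antagonists and ligand binders were more abundant, with 9 of 21 at 1 RPKM or more. Fstl1, a secreted follistatin-like protein, averaged 653 ± 59.1 RPKM, Sostdc1, a secreted BMP antagonist, 145 ± 20 RPKM, and Twsg1, a BMP-binding protein, 8.54 ± 1.03 RPKM (SD, n = 6 each). Nbl1, a BMP antagonist, had a log2 fold change of -0.51 (SE 0.26), which was not called. Of the 8 Smads, 5 reached 1 RPKM. Smad2 averaged 13.8 ± 1.85 RPKM, the common partner Smad4 11.2 ± 1.37 RPKM, Smad1 11 ± 1.65 RPKM and Smad5 4.51 ± 1.11 RPKM, while Smad3 averaged 0.22 ± 0.061 RPKM and the inhibitory Smad6 0.0846 ± 0.0408 RPKM (SD, n = 6 each). Smad5 had a log2 fold change of 0.50 (SE 0.21) and was not called.

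All 13 intracellular regulators and non-Smad partners reached 1 RPKM. Fkbp1a was the highest at 202 ± 94 RPKM, followed by Strap, which binds TGF-beta receptors, at 27 ± 10.8 RPKM and the Smad repressor Ski at 7.65 ± 1.71 RPKM (SD, n = 6 each). The lowest was Limk1, a kinase that binds the tail of Bmpr2, at 1.51 ± 0.842 RPKM (SD, n = 6). Of 13 genes known as targets of the pathway, 7 reached 1 RPKM. The BMP-responsive Id genes led them, with Id2 at 340 ± 66.5 RPKM, Id3 at 68.2 ± 15.6 RPKM and Id1 at 28.6 ± 9.77 RPKM (SD, n = 6 each). Id1 had 21, 17.4 and 33.2 RPKM in female A, B and C, against 22.2, 36.4 and 41.6 RPKM in male A, B and C, and its log2 fold change of -0.48 (SE 0.29) was not called.

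**Figure D5:**
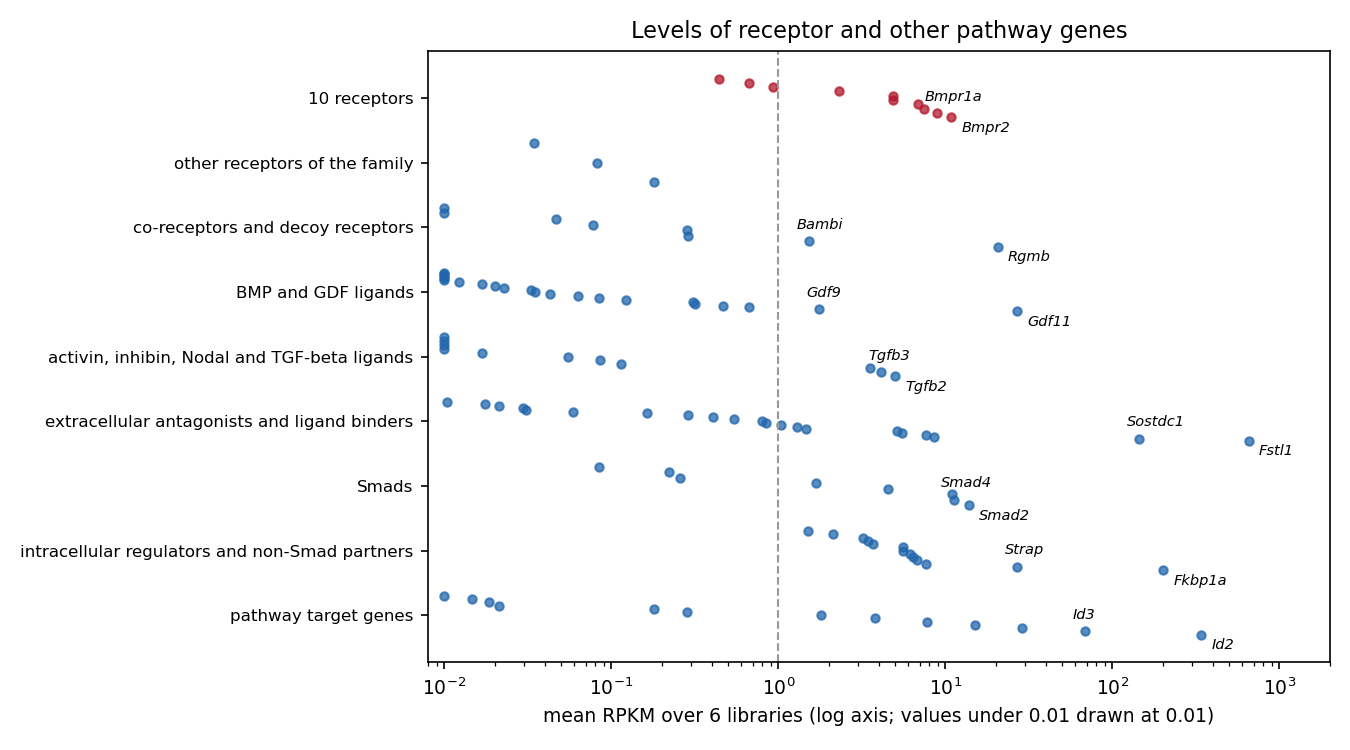
Mean RPKM over 6 libraries (log axis, values under 0.01 drawn at 0.01) of the 10 receptors and of 98 other pathway genes by list; points are genes and the dashed line marks 1 RPKM. Bmpr2, the highest receptor, averages 10.8 RPKM, and Fstl1, the highest gene of all lists, 653 RPKM.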

How the data were processed

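The authors deposited, per library, a table of 41388 genes with a read count, a CPM value, an RPKM value, a length and coordinates. Counting used featureCounts 1.4.5 (Subread) and build GRCm38.p2, per the submitters' processing notes. Not given in the sources used here are the aligner, the annotation, the strand setting and the handling of multi-mapping reads. Per the labels' protocols, small amounts of RNA were amplified before sequencing, and no molecular identifiers are named there, so zero-count limits (3 counts, 95% level) cover counting error only. The deposited CPM and RPKM equalled values computed from the deposited counts, and both were recomputed with TMM library sizes.

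Symbols came from GENCODE M21 (97.26% of identifiers). Counts were tested with edgeR 4.0.16 in R 4.3.3 (filterByExpr, quasi-likelihood test, Benjamini-Hochberg at 0.05, fold change female over male); standard errors and 95% intervals came from the same fit. Log2 CPM used an addend of 0.5, and the GC trend was a lowess curve (span 0.3) on transcript GC content. No 2 libraries of the same sex agreed within sampling noise. The libraries came from different embryos, mostly pools, and p-values reflect only how these libraries varied. Alternatives were RLE factors, other filters, DESeq2 1.42.0, limma-voom (limma 3.58.1), the replicate letter as a block, the number of embryos as a covariate, and each library left out in turn; the GC corrections were added after the data were seen. The edgeR step was tested on simulated counts, and the GC step on the measured values with a known slope added to a library. The members and lists were chosen with earlier results of these data known. Of other pathway lists, the rule named the 3 highest genes, the lowest gene, the gene of smallest p for sex and any gene called; some of these are printed, and genes outside the rule were picked with their values in view. A marker gene of the lists is not reported here. Promoter sequences are from RefSeq on GRCm38.p6.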

Additional observations from a re-analysis of the deposited data

Results flagged for a closer look

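Of 83 receptor, pathway and marker genes examined for a single library far from the other 5, 11 were found, and 0 of them was a member of the 10 receptors. The rule is set to flag about 1 in 20 genes by chance if values are normally distributed, and that rate was not checked on these data. Acvrl1, a type I receptor of the same family known from endothelial cells, had 0.5 RPKM in male B on 50 reads, against 0.0476 to 0.16 RPKM in the others. The BMP antagonist Sost had 0.0618 RPKM in female C, on 3 reads, and was at 0 elsewhere. The neuronal genes Avil and Pou4f1 were high in male C, at 489 RPKM and 238 RPKM, against 311 to 364 RPKM and 185 to 194 RPKM in the others. In female A the endothelial gene Tek had 0.55 RPKM, against 0.0362 to 0.226 RPKM. In male A the macrophage gene Aif1 had 0.327 RPKM on 11 reads, against at most 0.0872 RPKM. All 5 erythroid markers were high in male A: Hba-a1 at 168 RPKM, Hba-a2 at 150 RPKM, Hbb-bs at 656 RPKM, Hbb-bt at 267 RPKM and Alas2 at 11.1 RPKM. In each of these the other libraries were at or below 123 RPKM.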

How the results depend on the processing

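The number of receptors called between sexes was 0 in every alternative run, and the lowest adjusted p of any receptor over all of them was 0.782. Over all genes, 5 were called in the main analysis and in most alternatives, 12 with no filter on low counts, 7 by DESeq2 and 6 by limma-voom. Leaving out each library in turn gave 5 to 5 genes and 7 to 8 receptors at 1 RPKM or more, the 8 without male A, and 5 to 6 neighbouring pairs in 1 order. The letters did not pair the libraries, since the correlation of same-letter deviations was 0.35 for A, -0.35 for B and -0.1 for C; the replicate block called 5 genes and 0 receptors, with or without GC offsets. Values near 0 changed sign: Acvr1b to -0.0004 with RLE, -0.0042 with no filter, -0.0003 with DESeq2 and -0.0052 with the replicate block; Acvr1 to -0.0049, -0.0075 and -0.0046 with RLE, no filter and DESeq2, -0.0112 with GC offsets and -0.0116 with the replicate block and GC offsets. Acvr2b, at -0.0025, became 0.0041 with the CPM filter, 0.1527 with limma-voom, 0.0613 with the replicate block, 0.0272 with embryos as a covariate, 0.0993 with GC offsets and 0.1701 with both. Leaving out 1 library gave log2 fold changes of 0.12 to 0.64 for Tgfbr1, 0.05 to 0.36 for Bmpr2, 0.07 to 0.40 for Bmpr1a, 0.02 to 0.45 for Acvr2a, -0.28 to 0.33 for Acvr1b, -0.078 to 0.34 for Tgfbr3, -0.18 to 0.17 for Acvr1, -0.30 to 0.44 for Acvr2b, -0.022 to 0.65 for Bmpr1b and -0.11 to 0.23 for Tgfbr2. The lowest of the first 4 came without female A, and without female C 1 receptor had an unadjusted p under 0.05. Without length, Acvr2a over Tgfbr1 became -0.04 and Acvr2b over Bmpr1b -1.23, and 7 pairs kept 1 order. The cause of these changes was not tested. Depth limits Acvr2b, Tgfbr2 and Bmpr1b most.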
